A study of Homo sapiens with 12 samples.

Results

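The 10 genes described here, DCX, STMN1, STMN2, STMN3, TUBB3, MAP2, MAPT, MAP1B, NEFM and NEFL, encode proteins best known as parts of the neuronal cytoskeleton. They were chosen by name, with earlier results of these data known. By their symbols they were found as 10 of 35337 genes in an RNA table of EndoC-βH3 cells. EndoC-βH3 is a single human line with features of pancreatic beta cells. It was made from fetal pancreas, and it proliferates under introduced SV40 large T antigen and hTERT, both of which a tamoxifen-activated Cre recombinase can cut out. The 6 non-senescent samples were control cultures of this line, and the 6 senescent samples were the same line, wild type by its label, after 3 weeks of 4-hydroxytamoxifen. The labels give the concentration as 1 mM, whereas the study's methods give it in micromolar, and which of them applies is not settled here. Exposure to the drug and removal of the immortalizing genes cannot be told apart from senescence in this comparison. The comparison asked how the genes differed between senescent and non-senescent cells, within batch A (2 samples of each group) and within batch B (4 of each), as the letter in the sample titles was read.

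Microtubules are polymers of α- and β-tubulin. TUBB3 is the β-tubulin isotype typical of neurons, stathmins bind free tubulin and favour the disassembly of microtubules, and MAP1B, MAP2, tau (MAPT) and doublecortin (DCX) bind to microtubules and stabilise them, while neurofilaments such as NEFM and NEFL are the intermediate filaments of axons. Beta cells share part of the neuronal gene programme, and in them the microtubule network guides insulin granules and limits their access to the cell membrane. Stathmin 1 is in addition a protein of dividing cells, in which it takes part in building the mitotic spindle.

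Sequences before the start of 2 members are shown because these genes went furthest in opposite directions, STMN1 as the one that fell and TUBB3 as the one with the largest rise. They are RefSeq promoter windows on GRCh38.p14, in which 6 of the 10 members (DCX, STMN1, STMN3, TUBB3, MAP2 and MAP1B) had 14 windows. The STMN1 stretch is chr1:25906450-25906669 on the minus strand, upstream of 1 of its 3 listed starts. The capitals mark a CCAAT box and TTTGGCGC, a form of the motif bound by E2F factors, which begin 75 and 38 bases before that start. The TUBB3 stretch is chr16:89923092-89923337 on the plus strand, upstream of 1 of its listed starts. Its capitals mark a CCAAT box on the opposite strand, which begins 79 bases before that start. Both stretches lie inside the annotated spans of their genes, which are given below.

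STMN1: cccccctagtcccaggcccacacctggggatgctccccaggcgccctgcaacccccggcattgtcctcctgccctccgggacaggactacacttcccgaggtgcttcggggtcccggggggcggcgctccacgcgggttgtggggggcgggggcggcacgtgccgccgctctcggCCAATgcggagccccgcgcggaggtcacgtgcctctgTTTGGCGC
TUBB3: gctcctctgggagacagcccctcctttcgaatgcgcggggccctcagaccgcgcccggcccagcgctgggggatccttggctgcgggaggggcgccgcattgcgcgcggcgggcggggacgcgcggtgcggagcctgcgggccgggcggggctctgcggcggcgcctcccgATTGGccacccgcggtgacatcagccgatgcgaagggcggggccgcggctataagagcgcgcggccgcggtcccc

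The motifs were searched on both strands in the 250 bases before each start. TTTGGCGC or the second E2F form searched, TTTCCCGC, was present in 2 of the 3 STMN1 windows and in no window of the other members, and in 1.93% of all 35116 windows. CCAAT was present in 4 of the 14 member windows (of STMN1, TUBB3, MAP2 and DCX) and in 32.0% of all windows. TATAAA was present in 3 of the 14 (of DCX and MAP1B) and in 10.7% of all. The partial sites TTCAGCACC and GGACAGC of the element bound by REST, a repressor of neuronal genes, were in no member window and in 0.288% and 4.76% of all windows. A match describes the letters only, and no match says only that the letters are not in these windows.

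RNA was read at the 3′ end of transcripts by CEL-seq2. Libraries held 8873569 to 17106776 reads in batch A and 4672924 to 7063264 in batch B, and values are given as normalised read counts, reads divided by 1 size factor per library. Libraries separated by batch on the first principal component (57.6% of the variance) and by group on the second (19.3%). All 15 beta-cell markers passed the filter on low values. However, SST, the somatostatin gene of delta cells, had more reads than INS in the non-senescent cells (206128 against 19853 normalised read counts on average). Among senescent libraries SST stayed above INS in batch B (134256 against 60953 on average), but not in batch A (117539 against 176735). In senescent cells INS was 4.70-fold higher, and of the 15 beta-cell markers 4 were higher and 2 lower. Of 5 tested markers of other islet cells SST, GCG and HHEX were lower and none was higher. Of the markers of other pancreatic cells and leukocytes, CPA1 was 4.75-fold higher, and KRT19, CPB1 and PTPRC were lower. Of 10 markers of neurons, 4 passed the filter. The neuron markers summed to 57.8 to 310 ppm of the reads in non-senescent and 50.1 to 132 in senescent libraries. Among them RBFOX3 was lower (log2 fold change -0.68), TH was higher from few reads (7.37 to 28.4 normalised read counts on average), and SYT4 was not called, with -1.23 in batch A against 0.46 in batch B. The part of these markers in the results was not tested. Of 7 Schwann cell markers SOX10 and S100B had no reads, and the 7 together summed to at most 72.5 ppm. All 12 proliferation markers were lower in senescent cells, with a median log2 fold change of -2.80, while 11.8% of all tested genes were lower. In such bulk samples, fewer cells that express a gene and less of its RNA per cell cannot be told apart.

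All 10 members passed the filter, a mean normalised read count of 5 or more, and were tested. Of these, 5 (TUBB3, NEFL, NEFM, DCX and STMN2) were higher and 1 (STMN1) was lower in senescent cells by limma. A call needed an adjusted p under 0.1 together with a change over 1.5-fold. Among all 13847 tested genes, 11.6% were higher, 11.8% lower and 23.4% called in either direction. The median log2 fold change of the 10 members was 0.73, beside 0.01 over all tested genes. Because the members were chosen with earlier results of these data known, such comparisons with all genes are no test of an excess. MAP1B, MAP2, MAPT and STMN3 were not called. Without the fold limit, MAP1B and MAP2 would join the 6, where 45.5% of all tested genes have such an adjusted p. In the 6 called members the groups did not overlap in either batch and moved in the same direction in both, which held for 23.8% of all tested genes (11.9% higher and 11.9% lower). At the same time, the response of 6 members differed between batches by the interaction of batch and group (DCX, STMN1, STMN3, TUBB3, MAP2 and MAP1B), against 4.21% of all genes at this limit. This number rests mostly on batch A, which has 2 libraries per group. With Nonsen and Sen naming the libraries of each group, it was 4 when Nonsen A1 or Nonsen B1 was left out. It was 2 (TUBB3 and MAP1B) when Nonsen A2, Sen A1 or Sen A2 was left out.

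**Figure D1:**
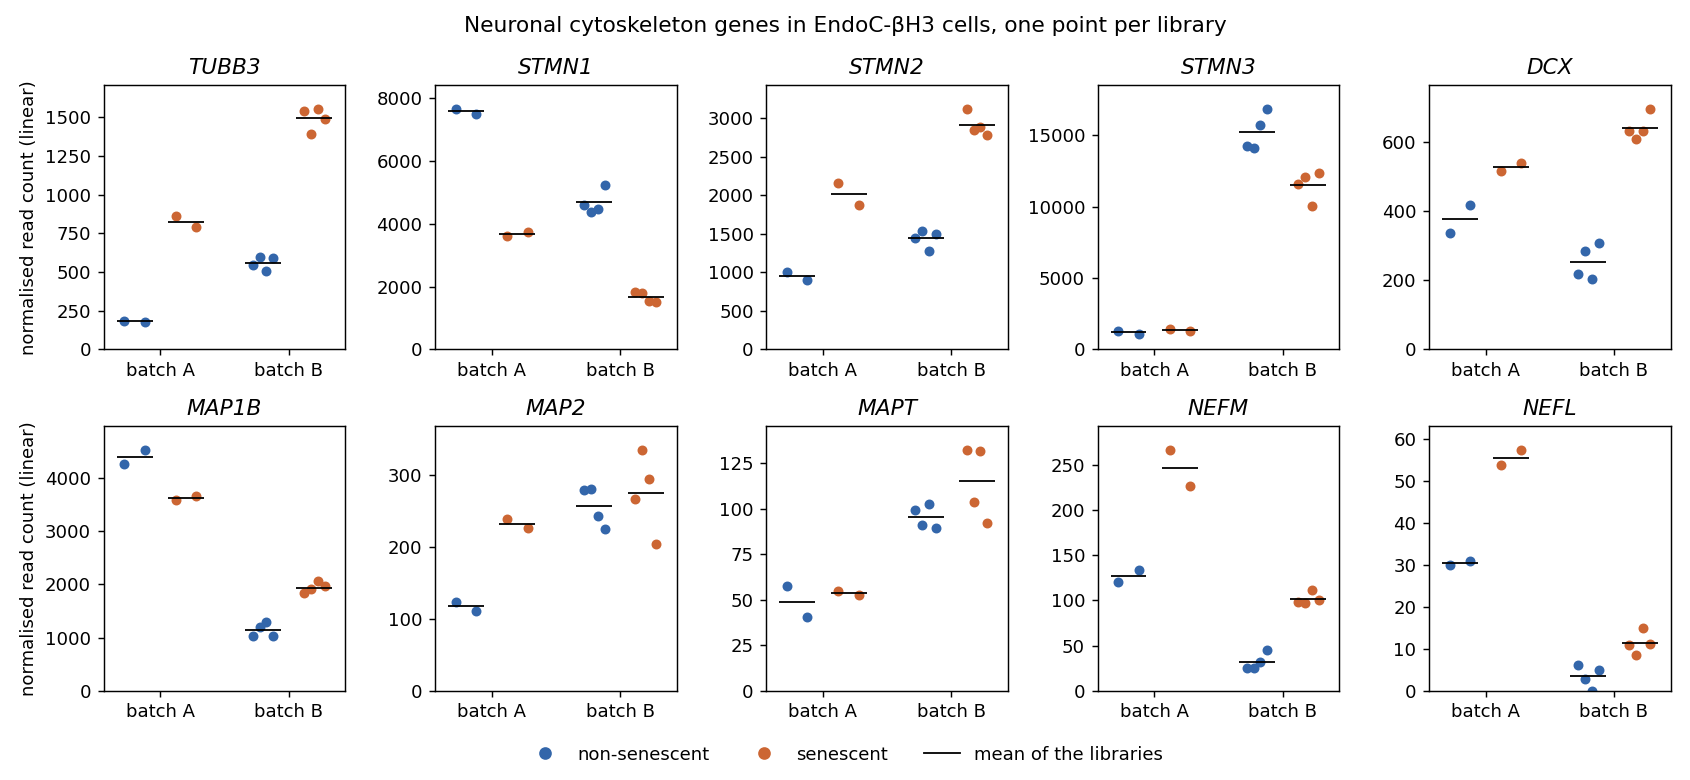
Normalised read counts (linear axis from 0, one scale per gene) of the 10 genes in each library, by batch and group; points are libraries and bars are means. TUBB3, STMN2, DCX, NEFM and NEFL were higher and STMN1 was lower in every senescent library of both batches than in any non-senescent library of the same batch.

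TUBB3 (chr16:89921392-89938761, plus strand, positions of all members from GENCODE v44 on GRCh38) had the largest rise of the members. In batch A the non-senescent libraries held 182 and 179 normalised read counts and the senescent ones 863 and 788. In batch B the values were 547, 600.2, 507 and 589 in non-senescent and 1544, 1395, 1554 and 1487 in senescent cells. Each senescent library thus lay far above its batch's non-senescent libraries, and the groups did not touch. The log2 fold change was 1.67 ± 0.11 (SE, limma adjusted p = 3.42e-09), a 3.19-fold rise, and only 1.68% of all tested genes had a larger log2 fold change. The rise was 4.55-fold for batch A and 2.67-fold for batch B, and this difference passed the test (interaction adjusted p = 0.00696). In the annotation a protein-coding gene on the same strand overlaps TUBB3, and how the reads were split between them is uncertain.

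The other β-tubulins went differently. Of 6 others that were tested, TUBB and TUBB4B, the isotypes found in most cells, fell, and TUBB6 rose. TUBB fell from 5475 ± 904 to 1720.0 ± 119 normalised read counts (SD, n = 6 per group), a log2 fold change of -1.66 ± 0.08. TUBB4B fell from 1625 ± 182 to 631 ± 58.1, a log2 fold change of -1.36 ± 0.07. TUBB6 went from 65.9 ± 32.3 to 100.0 ± 44.1 (log2 fold change 0.62 ± 0.17, adjusted p = 0.00823). Its groups did not stay apart in the same direction in every batch. TUBB2A, TUBB2B and TUBB1 were not called, with log2 fold changes of 0.28, 0.22 and -0.31, and TUBB4A and TUBB8 had too few reads to be tested. The β-tubulin genes other than TUBB3 together fell from 7515 ± 1046 to 2836 ± 160.3 normalised read counts.

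TUBB3 accordingly made up a larger part of the β-tubulin reads. Its share was 2.87% and 2.78% in the non-senescent and 23.1% and 21.3% in the senescent libraries of batch A, and 6.20% to 6.70% against 33.0% to 37.8% in batch B. On average it rose from 5.22% ± 1.87 to 30.6% ± 6.75 (SD, n = 6), by 25.4 percentage points, with p = 0.00476 in a two-sided exact permutation test within batches and 0.00714 after adjustment over the 3 shares tested. The first value is the smallest p that the 420 arrangements can give. Both parts of the ratio moved, the TUBB3 reads up and the reads of TUBB and TUBB4B down. Reads of similar β-tubulin transcripts are divided among the isotypes by estimation, so levels within the family are uncertain.

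**Figure D2:**
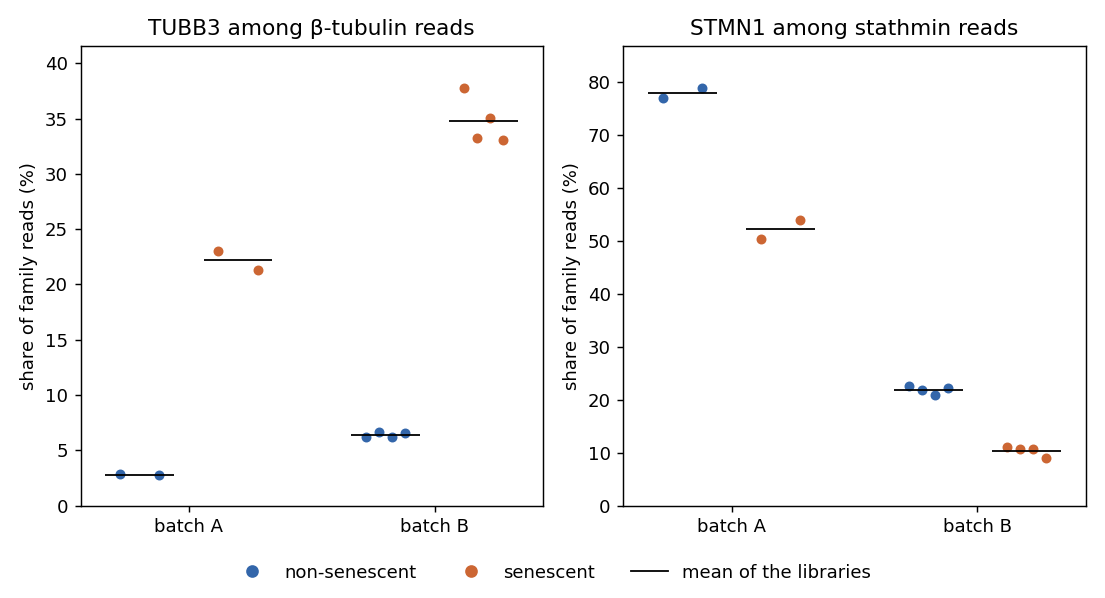
Share (in %, linear axis from 0) of TUBB3 among the reads of 9 β-tubulin genes and of STMN1 among the reads of 4 stathmin genes, per library, by batch and group; bars are means. The TUBB3 share is at most 6.70% in non-senescent and at least 21.3% in senescent libraries, while the STMN1 share falls within each batch from different starting levels.

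Among the α-tubulins, TUBA1B and TUBA1C fell and TUBA1A, TUBA4A and TUBA8 were not called. TUBA1B fell from 22577 ± 6762 to 4885 ± 1066 normalised read counts, a 4.52-fold fall. TUBA1A, the α-tubulin that is abundant in neurons, had 1514 ± 97.1 and 1413 ± 289.7 (log2 fold change -0.12 ± 0.09, adjusted p = 0.336). The α-tubulin genes together fell 2.68-fold for batch A and 4.02-fold for batch B. The plot of tubulin isotypes shows TUBB3 at one end and TUBB, TUBB4B, TUBA1B and TUBA1C at the other.

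**Figure D3:**
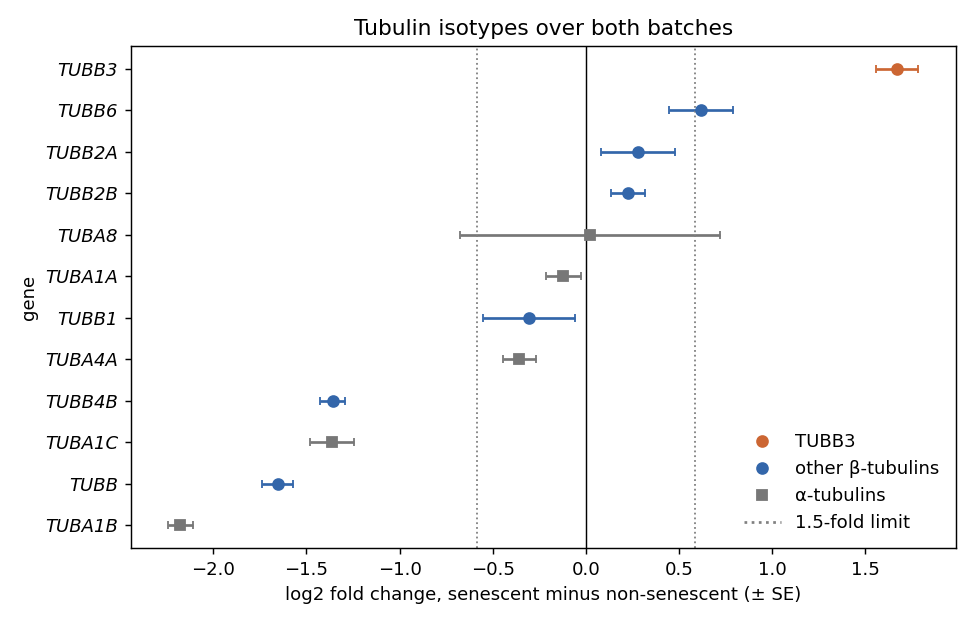
Log2 fold change (senescent minus non-senescent, fitted over both batches, ± SE) of the 12 tested tubulin genes; dotted lines mark the 1.5-fold limit. TUBB3 stands at 1.67, TUBB6 at 0.62, and TUBB, TUBB4B, TUBA1C and TUBA1B between -1.36 and -2.18.

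The stathmins, the tubulin-binding proteins, did not move together. STMN1 (chr1:25884181-25906991, minus strand) was the 1 member that fell. It had 7649 and 7503 normalised read counts in non-senescent and 3611 and 3742 in senescent libraries of batch A, and 4591, 4386, 4477 and 5244 against 1823, 1779, 1544 and 1499.7 in batch B. All senescent libraries lay under all non-senescent ones, across batches too. The log2 fold change was -1.34 ± 0.08 (adjusted p = 1.54e-09), a 2.54-fold fall. It was -1.04 ± 0.11 in batch A against -1.49 ± 0.08 in batch B. The test of this batch difference lay just inside its limit (interaction adjusted p = 0.0992). STMN1 moved in the same direction as the 12 proliferation markers. Of the gene lists used by the study, STMN1 is in that of E2F targets, DCX in beta-cell maturity, STMN3 in the p16-associated lists, MAP2 in replicative senescence and NEFM in Ras-induced senescence.

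STMN2, a stathmin of growing axons (chr8:79611117-79666158, plus strand), rose in both batches by nearly the same factor. Its values were 1002 and 906 in non-senescent and 2159 and 1880.0 in senescent libraries of batch A. In batch B they were 1449, 1536, 1280.0 and 1498 against 3122, 2846, 2885 and 2786. All senescent libraries were higher than all non-senescent ones, across batches too. The log2 fold change was 1.04 ± 0.07 (adjusted p = 2.03e-09), made of 1.08 ± 0.11 for batch A and 1.02 ± 0.08 for batch B. The batch difference of -0.06 ± 0.13 did not pass the test (interaction adjusted p = 0.877). This was the smallest difference in size among the 10 members.

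STMN3 (chr20:63639705-63657682, minus strand) belongs to the neuronal stathmins and had the widest gap between batches. Batch A held 1284 and 1106 normalised read counts in non-senescent and 1404 and 1308 in senescent cells. Batch B held 14279.6, 14135, 15761 and 16850.0 in non-senescent and 11603, 12090.2, 10057 and 12396 in senescent cells. Fitted over both groups, batch B was 10.4-fold higher than batch A, and 2.05% of tested genes had a gap as wide. Within batches the groups did not overlap, but the change had opposite signs, a log2 fold change of 0.19 ± 0.12 in batch A and -0.40 ± 0.08 in batch B (interaction adjusted p = 0.0409). Over both batches the value was -0.21 ± 0.10 (adjusted p = 0.101), which is no call. STMN4, the last of the family, had next to no reads and was not tested.

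The STMN1 share of all stathmin reads fell in both batches, from 77.0% and 78.9% to 50.3% and 54.0% in batch A and from 20.8% to 22.6% down to 8.99% to 11.0% in batch B. The mean fell from 40.6% ± 29.0 to 24.3% ± 21.6 (SD, n = 6), by 16.3 percentage points, with p = 0.00476 in the two-sided exact permutation test within batches and 0.00714 after adjustment. Without regard to batch the same difference had a permutation p of 0.305, and the share differed more between batches than between groups. What set the batches apart here was not tested. The 4 stathmins together fell 1.38-fold for batch A and 1.33-fold for batch B.

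DCX, doublecortin, is a microtubule-binding protein of migrating young neurons (chrX:111293779-111412429, minus strand). It had 337 and 417 normalised read counts in non-senescent and 515 and 538 in senescent libraries of batch A. In batch B it had 218, 284, 203 and 308 against 633, 608, 631 and 695. All senescent libraries lay above all non-senescent ones. The log2 fold change was 1.07 ± 0.14 (adjusted p = 1.49e-05), from 295 ± 79.1 to 603 ± 66.6 on average. In batch A alone it was 0.49 ± 0.18, under the 1.5-fold limit, and in batch B 1.36 ± 0.13 (interaction adjusted p = 0.0509).

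Of 7 related genes, those of the doublecortin family and the partners of LIS1, none rose and NDE1 and DCLK3 fell. NDE1, which also acts in mitosis, fell from 90.7 ± 26.3 to 32.2 ± 9.26. DCLK3 was low, at 10.3 ± 2.81 and 1.38 ± 0.995 normalised read counts. PAFAH1B1, the LIS1 gene, had 456 ± 231 and 451 ± 194 (log2 fold change 0.04, adjusted p = 0.852).

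The structural microtubule-associated proteins among the members were not called over both batches. MAP1B, a protein of growing axons (chr5:72107234-72209565, plus strand), went opposite ways. In batch A it had 4274 and 4525 normalised read counts in non-senescent and 3589 and 3670.1 in senescent libraries. In batch B it had 1031, 1207, 1284 and 1024 against 1835, 1908, 2058 and 1964. The groups did not overlap in either batch, lower upon senescence in A and higher in B. The log2 fold changes were -0.28 ± 0.11 and 0.78 ± 0.08, and the difference of 1.05 ± 0.14 had the lowest interaction adjusted p of the members, 0.000498. The value over both batches, 0.43 ± 0.14 (adjusted p = 0.0213), stayed under the fold limit and describes neither batch. An opposite sign in the batches was found in 29.4% of all tested genes.

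MAP2, the microtubule-binding protein of dendrites (chr2:209424047-209734147, plus strand), rose in batch A alone. There the values were 124 and 110.5 in non-senescent and 239 and 226 in senescent cells, a log2 fold change of 0.98 ± 0.20. In batch B they were 280.1, 281, 243 and 225 against 267, 335, 295 and 204, with groups that overlapped and a log2 fold change of 0.08 ± 0.14. The batches differed with an interaction adjusted p of 0.0684. Over both batches the log2 fold change was 0.38 ± 0.15 (adjusted p = 0.0604), under the fold limit.

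MAPT encodes tau, the microtubule-associated protein of axons (chr17:45894527-46028334, plus strand). It had 57.2 and 40.5 normalised read counts in non-senescent and 54.8 and 52.5 in senescent libraries of batch A. In batch B it had 99.4, 90.9, 102 and 89.5 against 132, 104, 132 and 92.2. The groups overlapped in both batches. The log2 fold change was 0.22 ± 0.14 (adjusted p = 0.233), from libraries with 51 to 122 reads. In the annotation STH, a protein-coding gene, and MAPT-IT1 overlap MAPT on the same strand and non-coding genes on the opposite one. Whether the counting used strand is not given in the sources used here, and how reads were split is uncertain.

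MAP2 and MAPT together took 53.6% ± 16.7 of the reads of MAP2, MAPT and MAP4 in non-senescent and 52.7% ± 8.72 in senescent cells (SD, n = 6). MAP4 is the related protein of non-neuronal cells. The difference of -0.971 percentage points had a two-sided exact permutation p of 0.795, and it was 8.47 points for batch A and -5.69 for batch B.

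Of 10 other structural microtubule-associated proteins tested, 3 rose and 1 fell. MAP1A, the adult relative of MAP1B, rose from 818 ± 237 to 1445 ± 278 normalised read counts (log2 fold change 0.85 ± 0.08). MAP6, which makes microtubules resistant to cold, rose from 85.5 ± 24.2 to 162 ± 16.2, and MAP7, which recruits kinesin, from 139 ± 25.7 to 256 ± 33.5. MAP7D3 fell from 30.2 ± 11.7 to 17.8 ± 10.4 (adjusted p = 0.0650), with groups that did not stay apart in the same direction in every batch.

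The neurofilament subunits rose in both batches from low levels. NEFM, the medium subunit (chr8:24913758-24919098, plus strand), had 121 and 134 normalised read counts in non-senescent and 266 and 226 in senescent libraries of batch A. In batch B it had 25.6, 24.8, 32.1 and 44.7 against 98.2, 96.6, 111 and 101. Senescent libraries were higher within each batch, but those of batch B lay under the non-senescent ones of batch A. The log2 fold change was 1.44 ± 0.17 (adjusted p = 3.66e-06), from 0.95 ± 0.26 for batch A and 1.68 ± 0.18 for batch B, which were not shown to differ (interaction adjusted p = 0.274).

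NEFL, the light subunit that forms the core of the filament (chr8:24950955-24956721, minus strand), had the fewest reads of the members. It had 30.0 and 31.0 normalised read counts in non-senescent and 53.9 and 57.4 in senescent libraries of batch A, and 6.02, 2.75, 0 and 4.97 against 10.9, 8.40, 14.9 and 11.2 in batch B. These rest on 39 to 120 reads per library in batch A, but on 0 to 4 reads in non-senescent and 8 to 13 in senescent libraries of batch B. The value of 0 in Nonsen B3 is compatible with up to 3 reads, or 4.38 normalised read counts, for counting error only. The groups did not overlap in either batch. The log2 fold change was 1.47 ± 0.41 (adjusted p = 0.00920), with the widest error of the 10 members, and made of 0.85 ± 0.71 for batch A and 1.78 ± 0.50 for batch B. Its size depended on the pseudocount and the tool, with 0.76 at a pseudocount of 8 in place of 1, 1.18 by edgeR and 1.19 by DESeq2. Without the batch term the adjusted p was 0.297. Of 3 other intermediate filament genes tested, INA (α-internexin, a partner of the neurofilaments) fell from 51.5 ± 25.7 to 21.8 ± 10.3, and none rose. The INA groups did not stay apart in the same direction in every batch. VIM and NES, the filament genes of mesenchymal and progenitor cells, had too few reads to be tested.

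**Figure D4:**
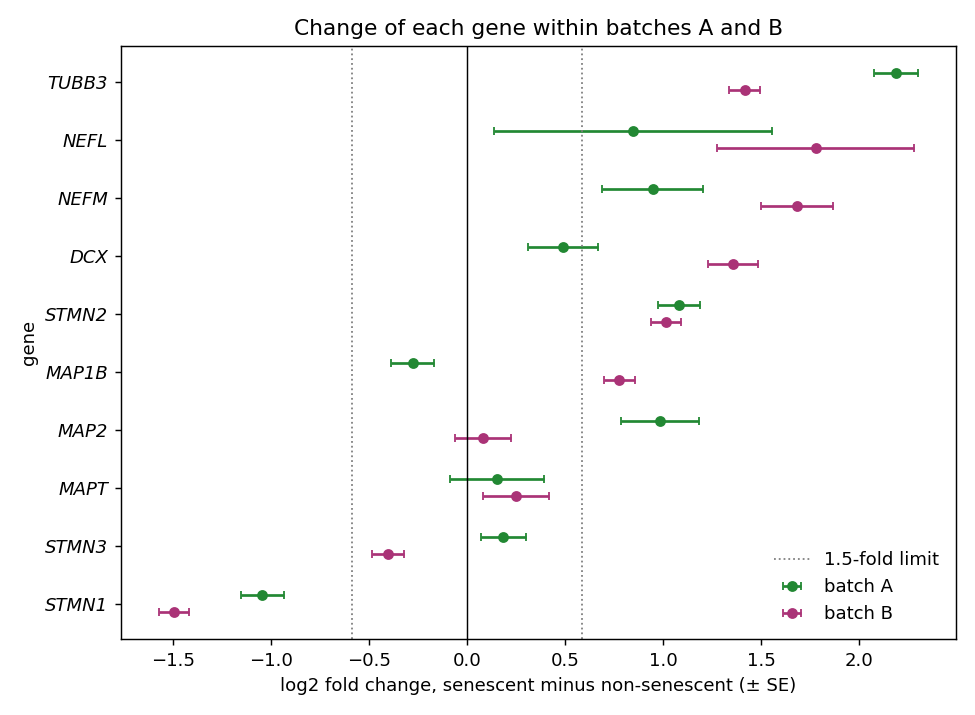
Log2 fold change (senescent minus non-senescent, ± SE) of each of the 10 genes within batch A (2 libraries per group) and batch B (4 per group); dotted lines mark the 1.5-fold limit. STMN2 has nearly the same change in both batches, whereas MAP1B (-0.28 and 0.78) and STMN3 (0.19 and -0.40) lie on opposite sides of 0.

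The members also differed in level between batches. By the batch term fitted over both groups, NEFL was 6.44-fold, NEFM 3.10-fold and MAP1B 2.70-fold higher in batch A. STMN3 was 10.4-fold, TUBB3 2.36-fold and MAPT 2.03-fold higher in batch B. For members with an interaction of batch and group, the gap depended on the group. MAP1B averaged 4400 in batch A against 1137 in batch B in non-senescent cells, and 3630 against 1941 in senescent cells. For TUBB3 these means were 181 against 561, and 825 against 1495. A gap over 2-fold was found in 32.0% of all tested genes. The pooled SD between replicates of 1 group and batch ranged from 6.25% for TUBB3 to 18.9% for NEFM in 9 members and was 74.6% for NEFL. For DCX the fitted batch gap, 1.11-fold, was within this spread (14.9%), but it averages opposite gaps. DCX averaged 377 in batch A against 253 in batch B in non-senescent cells, and 526 against 641 in senescent cells. What set the batches apart was not tested. Reads were not scaled by transcript length, so reads of different genes, and shares within a family, compare read numbers and not transcript levels.

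The genes whose batch-centred log2 values over the 12 libraries were most like those of TUBB3 were NMNAT2 (an axonal enzyme of NAD synthesis, r = 0.993), LINGO1, CD81, STX1A (syntaxin 1A of the exocytosis machinery) and ADA2. For STMN1 they were SLBP (the histone mRNA binding protein, r = 0.997), H2AFZ, DEK, PROM1 and C20orf24. With 12 libraries of 2 groups, such correlations carry the group difference, and 503 and 774 genes had r over 0.9 with TUBB3 and STMN1. Among the members, TUBB3 and STMN2 were the most alike (r = 0.978), and STMN1 ran opposite to STMN2 (r = -0.954) and NEFM (r = -0.939).

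Further genes of the neuronal cytoskeleton and its regulation were counted by lists. In the lists of cytoskeleton genes, members left out, 19 were higher and 12 lower of 113 tested, or 27.4%, beside 23.4% of all tested genes. Their median log2 fold change was 0.16. These lists too were chosen with earlier results of these data known, so the shares are no test of an excess. By list, the called share was 22.2% for motors, 20.8% for microtubule ends, severing and modification and 17.6% for kinases and phosphatases. For ankyrins and spectrins it was 33.3% and for axon growth 28.6%. In the lists described above, members left out, it was 50.0% for β-tubulins and 40.0% for α-tubulins. There it was also 40.0% for structural microtubule-associated proteins, 33.3% for intermediate filaments and 28.6% for the doublecortin family and LIS1 partners. It was 25.0% for regulators of neuronal genes. Of 18 microtubule motors of axonal transport, 4 rose and none fell. KIF5C, a neuronal kinesin heavy chain, rose from 631 ± 75.8 to 1232 ± 59.6 normalised read counts, and KIF3A and KIF21A rose 1.69-fold and 1.57-fold, while DYNC1I1 was low (3.50 ± 3.07 and 9.72 ± 5.08). For KIF3A and KIF21A the log2 fold changes were 0.31 and 0.38 in batch A, under the 1.5-fold limit. In batch B they were 0.98 and 0.78. KIF1A, which carries dense-core vesicles, had 10248 ± 1295 and 11206 ± 920.5 and was not called.

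Of 24 genes for microtubule ends, severing and tubulin modification, 4 rose and 1 fell. TBCB, a tubulin folding cofactor, rose from 2759 ± 869.9 to 4642 ± 1346, SIRT2, a tubulin deacetylase, from 166 ± 75.4 to 265 ± 92.6, and MAPRE3, a neuronal plus-end protein, from 404 ± 97.1 to 624 ± 127. TTLL1 also rose, and KATNA1, the severing subunit of katanin, fell from 32.6 ± 4.38 to 21.2 ± 2.85. Of 17 kinases and phosphatases that act on tau and other microtubule-associated proteins, 3 rose and none fell. These were MAPK8IP1, the scaffold JIP1 (2.18-fold), PPP2R2B, a neuronal phosphatase subunit (2.07-fold), and MARK2 (1.52-fold).

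Of 9 genes of the ankyrin and spectrin membrane skeleton, 2 rose and 1 fell. ANK2, which anchors membrane proteins to spectrin, rose from 385 ± 277 to 578 ± 291, and ANK1 fell from 156 ± 76.2 to 80.4 ± 25.6. For ANK2 the log2 fold change was 0.35 in batch A, under the 1.5-fold limit, and 0.93 in batch B. The ANK1 groups did not stay apart in the same direction in every batch. Of 14 axon growth proteins, CNTN1 and PLXNA2 rose 1.73-fold and 1.64-fold. GAP43, a growth cone protein, fell from 111 ± 58.5 to 46.6 ± 21.5, and MARCKSL1 fell from 3794 ± 1211 to 2396 ± 391. Of 24 regulators of neuronal genes, RCOR1, CTDSP1 and MYT1 rose, and INSM1, INSM2 and ELAVL2 fell. REST, the repressor of neuronal genes, was low, at 4.41 ± 3.79 and 6.62 ± 3.56 normalised read counts, and was not called (adjusted p = 0.308).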

How the data were processed

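EndoC-βH3 RNA was profiled by CEL-seq2 in 12 libraries, 6 per group. By the study's methods and the submitters' processing notes, the authors used cutadapt for trimming, Salmon 0.13.1 and GRCh38 for quantification, and DESeq2 with a batch correction for normalisation and testing. How molecular identifiers were handled, and which transcript annotation was used, is not given in the sources used here. The deposited values are a signal, reads per gene divided by 1 size factor per library. All 196021 non-zero values were whole multiples of 1 read within 0.001, so the reads were recovered. The deposited columns of the authors' own comparison (log2 fold changes and their errors, a test score, p-values) were not used.

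Here limma 3.58.1 (R 4.3.3) was fitted to log2(normalised read count + 1) with intensity trend, batch and group, for 13847 genes with a mean of at least 5, and adjusted p-values are its Benjamini-Hochberg values over them. Fold changes are on this scale, and those of low genes depend on the pseudocount. Genes were called at an adjusted p under 0.1 and over 1.5-fold, and batch by group interactions at an adjusted p under 0.1. Read shares were tested by exact permutation within batches. edgeR 4.0.16 and DESeq2 1.42.0 on the recovered reads were alternatives. The limma call of group differences was also run on simulated data without batch by group interactions, whose outcome is not reported here. edgeR called 3237 genes, 3071 of them shared with limma. The members and gene lists were chosen with earlier results of these data known. The text names all members, from each list up to 4 called genes with the largest change, no overlap within batches and a mean of at least 20, and for TUBB3 and STMN1 the 5 most alike genes. TUBB6, MAP7D3, DCLK3, INA, DYNC1I1, TTLL1, ANK1, INSM2, ELAVL2 and the uncalled genes were named after their values were seen. Some genes of the lists enter the counts but are not reported here singly. The titles do not say that samples were separate cultures, so p-values measure the spread between these samples, which may be technical. Pairs of libraries of 1 group and batch differed beyond sampling noise (chi-square per degree of freedom 4.14 to 7.61).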

Additional observations from a re-analysis of the deposited data

Results flagged for a closer look

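Of the 10 members, 6 were marked because their change upon senescence differed between batches by the limma interaction of batch and group (adjusted p under 0.1). As a log2 difference, the change in batch B less that in batch A came to 1.05 for MAP1B, 0.87 for DCX, -0.45 for STMN1, -0.59 for STMN3, -0.77 for TUBB3 and -0.90 for MAP2. MAP1B and TUBB3 passed this limit in all 10 alternative fits and with any 1 of the 12 libraries left out. DCX and STMN3 passed in 9 of 10 fits and 9 of 12 omissions, MAP2 in 8 and 5, and STMN1 in 5 and 3. No library stood apart from the rest of its group in the 40 groups of 4 or 6 values examined. Batch A, with 2 libraries per group, could not be examined by itself, so this says nothing of outliers within that batch. What set the responses of the batches apart was not tested.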

How the results depend on the processing

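The 5 rises and the fall of members kept their direction under all alternatives, and DCX lost its call in batch A alone (0.49) and NEFL without the batch term (adjusted p = 0.297); with a mean of at least 20 required, NEFL was not tested, and with a pseudocount of 8 its log2 fold change was 0.76. The number of members called higher ranged from 4 to 6, but the called members were not always the same. MAP2 was called higher in batch A alone (0.98, limma adjusted p = 0.00185). MAP1B was called higher in batch B alone (0.78, limma adjusted p = 0.000196). STMN3 (0.19) and MAP1B (-0.28), not called over both batches, changed sign in batch A alone. Without the batch term 2143 genes were called, against 3237. The number of genes that differed between batches was 583, and 356 with the replicate block, 289 without the trend, and 169 to 743 with single libraries left out (261, 175, 183 and 169 without Nonsen A1, Nonsen A2, Sen A1 and Sen A2). For members this number was 6, and 2 without the trend and 2 to 6 with single libraries left out. The block took same-numbered libraries as pairs, but their deviations did not correlate (r from -0.05 to 0.02, and 0 of 6 were most alike their own number). The TUBB3 share difference was 19.4 points in batch A alone (permutation p = 0.333, the smallest that 2 against 2 allow) and 24.4 to 26.3 with single libraries left out. The STMN1 share difference was -25.8 in batch A alone (permutation p = 0.333), -16.3 with permutation over all libraries (p = 0.305) and -17.0 to -14.6 with single libraries left out. The share of MAP2 and MAPT turned its sign in batch A alone (8.47), without Nonsen B1 (1.31) and without Sen B4 (0.36). It ranged from -3.21 to 1.31 with single libraries left out and from -5.69 to 8.47 over the other alternatives. With equal library totals 1226 genes were higher and 2090 lower, in place of 1605 and 1632, and turned no member's sign. In batch B, depth limits NEFL to a few reads per library.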
